A study of Mus musculus with 12 samples.

Results

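The chromatin around 10 genes of inflammatory signalling was examined: the chemokine genes Ccl2, Ccl12, Ccl3, Ccl4, Ccl6, Ccl9 and Cxcl16 and the cytokine genes Il1a, Il1b and Tnf. A region belonged to one of them when the deposited peak table named that gene as the nearest. This gave 97 peaks of 281974 in 3 tables. Microglia held 87 of 91770 peaks, with at least 1 peak for each of the 10 genes. NeuN+ nuclei held 7 of 107627 peaks, near Ccl2, Il1a and Il1b, and Olig2+ nuclei held 3 of 82577, near Ccl2 and Ccl12.

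The peaks came from ATAC-seq, in which a transposase cuts and tags accessible DNA, in forebrain of C57BL/6 mice at 4 months of age. Wild-type (WT) mice were compared with SgshKO mice, which lack the lysosomal enzyme that Sgsh encodes, N-sulfoglucosamine sulfohydrolase, used to break down heparan sulfate. Microglia were sorted live as CD11b+, CX3CR1+ cells with low CD45. Neuronal nuclei were sorted as NeuN+ and negative for PU.1 and Olig2, and oligodendrocyte-lineage nuclei as Olig2+ and negative for PU.1 and NeuN, both after light formaldehyde fixation. Each of the 3 sorts had 2 WT and 2 SgshKO libraries, 12 in all. No group received a treatment according to the labels, which name neither the Sgsh allele, the sex nor the animals behind a library, so that p-values measure only the spread between these libraries, which may be technical. With 2 libraries against 2, an exact permutation test could not give a two-sided p below 0.333, and the tests below therefore borrow the spread from all peaks of a table.

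Chemokines are small secreted proteins that guide cells along a gradient by binding receptors on their surface. Ccl2 and Ccl12 bind Ccr2 and draw monocytes, Ccl3 and Ccl4 draw macrophages and T cells, Ccl6 and Ccl9 bind Ccr1, and Cxcl16 is made as a membrane-bound ligand of Cxcr6. Il1a and Il1b both signal through the interleukin-1 receptor Il1r1, and Tnf through Tnfrsf1a and Tnfrsf1b. Microglia, the resident macrophages of the brain, make many of these proteins when activated, and several of the genes are known targets of NF-kB and AP-1. Several of them lie in clusters: on chromosome 11 Ccl2 and Ccl12 share one with Ccl7 and Ccl11, which lie between them, and Ccl9, Ccl6, Ccl3 and Ccl4 form a second cluster, while Il1a and Il1b are neighbours among the protein-coding genes of chromosome 2. The nearest gene of a peak is thus a label of position and not a measured target.

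The RefSeq promoter table of mouse assembly GRCm38.p6 gave the 250 bases before the start site for 7 of the 10 genes: Ccl3, Ccl6, Ccl9, Ccl12, Il1a, Il1b and Tnf. In all 7 the start site implied by the mm10 coordinates of the peak tables differed from the RefSeq one by 0 bp. Of these, 4 are shown, because the Ccl3 window holds the start-site peak that was called, the Ccl9 window ends in the start-site peak with the largest decrease among those nearest to a start, and Il1a and Il1b are a neighbouring pair of which only Il1a had a peak there. All 4 are on the minus strand and are written 5′ to 3′, ending at the base before the start, from chr11:83649379-83649628 (Ccl3), chr11:83578637-83578886 (Ccl9), chr2:129309973-129310222 (Il1a) and chr2:129371140-129371389 (Il1b). Capitals mark matches to TATAAA, to the AP-1 motif TGANTCA or to the NF-kB motif, searched on both strands, and a TATAAA on the opposite strand reads TTTATA.
Ccl3: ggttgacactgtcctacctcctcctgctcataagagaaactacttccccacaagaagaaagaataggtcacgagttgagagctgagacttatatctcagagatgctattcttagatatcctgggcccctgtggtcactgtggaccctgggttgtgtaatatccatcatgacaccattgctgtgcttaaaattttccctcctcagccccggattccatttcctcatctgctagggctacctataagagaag
Ccl9: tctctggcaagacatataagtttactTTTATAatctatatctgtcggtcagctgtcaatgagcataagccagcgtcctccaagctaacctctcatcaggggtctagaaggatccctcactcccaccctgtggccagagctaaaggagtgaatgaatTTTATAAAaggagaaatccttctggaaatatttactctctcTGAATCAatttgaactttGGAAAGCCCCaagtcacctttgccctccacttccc
Il1a: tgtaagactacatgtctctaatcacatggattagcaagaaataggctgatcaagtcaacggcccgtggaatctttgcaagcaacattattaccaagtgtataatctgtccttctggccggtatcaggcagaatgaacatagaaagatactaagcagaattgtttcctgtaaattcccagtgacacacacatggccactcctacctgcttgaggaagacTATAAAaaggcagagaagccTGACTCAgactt
Il1b: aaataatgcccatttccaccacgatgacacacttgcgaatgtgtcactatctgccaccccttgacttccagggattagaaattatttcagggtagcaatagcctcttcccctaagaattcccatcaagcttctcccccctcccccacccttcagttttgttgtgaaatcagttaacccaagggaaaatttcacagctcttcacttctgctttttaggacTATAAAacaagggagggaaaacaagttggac

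TATAAA was found in 5 of the 7 windows, against 12.37% of the 32851 windows of the same length in the table. It lay from -31 to -26 in Ccl12 and Il1b, from -32 to -27 in Il1a and from -29 to -24 in Tnf, counted back from -1 at the base before the start. In Ccl9 the copy on the gene's strand was farther away, from -92 to -87, and overlapped a copy on the opposite strand. TGANTCA occurred in Ccl9 (from -53 to -47) and Il1a (from -12 to -6), against 6.75% of all windows, and the NF-kB motif in Ccl9 (from -35 to -26), against 7.25%. AGGAAGT, a short form of the PU.1 motif, occurred in Ccl6, Ccl12 and Tnf, against 7.69%. Its longer form GAGGAAGT (2.44% of all windows), the CLEAR motif (0.24%), the E-box CACGTG that CLEAR contains (6.02%) and TTGCNNAA (9.56%) occurred in none of the 7. The microglia peaks covered all 250 bases of the Ccl12 window, 228 of Tnf, 114 of Ccl3, 101 of Il1a, 73 of Ccl6, 59 of Ccl9 and 0 of Il1b. In Ccl9 the covered bases were those next to the start, with the AP-1 and NF-kB matches in them and the TATAAA outside. In Ccl3 and Il1a they were those farthest from the start, so the TATAAA and AP-1 matches of Il1a lay outside its peak. A match is a matter of letters and no evidence of binding.

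Values below are normalized tags, that is, reads in a peak scaled to a library total of 10000000. The microglia libraries had 10771659 to 11804222 reads, the NeuN+ libraries 14326703 to 17706971 and the Olig2+ libraries 15044194 to 19555924, and the median peak held 17 to 39 reads. The share of reads in peaks was uneven among microglia libraries, at 55.8% and 48.7% in WT and 67.4% and 53.7% in SgshKO. In microglia the microglia markers P2ry12, Tmem119, Sall1, Csf1r and Siglech each had a peak within 1000 bp of a start site, and 0 of these peaks were called. At the peak of each gene with the most tags over all microglia libraries the log2 change was 0.57 for Tmem119, 0.07 for P2ry12, -0.17 for Sall1, -0.23 for Siglech and -0.49 for Csf1r. P2ry12 had another peak of similar level at -803 bp, with 38.0 and 21.2 in WT and 15.6 and 16.7 in SgshKO (log2 change -0.78, adjusted p = 0.295). Of 6 markers of border macrophages only Mrc1 and Ms4a7 had one, with sums of 38.9 and 28.8 in WT and 60.6 and 50.1 in SgshKO, both SgshKO libraries being higher. Of 7 markers of blood monocytes and neutrophils only S100a8 had one (18.2 and 22.03 against 22.5 and 9.28), while Ccr2 and Ly6c2 had none. Markers of other brain cells also had peaks in the microglia sort. Of 6 neuronal markers 1 did, Slc17a7 (25.9 and 32.2 against 49.4 and 41.8, both SgshKO libraries higher). Of 7 oligodendrocyte markers 4 did, with sums of 283 and 247 against 283 and 259 (WT against SgshKO). The peak at -51 bp from Mbp, a myelin gene, was called higher (36.3 and 33.9 against 77.9 and 78.0, log2 change 1.13, adjusted p = 0.0361). The peak at 878 bp from Mbp also had a positive change (0.47). Changes were negative at Pdgfra (-0.81, -1.07 and -0.72), Mog (-0.46) and Olig2 (-0.39), without a call. Of 5 astrocyte markers 2 had peaks (sums 114 and 74.6 against 75.3 and 64.1), with 0 calls. Of 4 endothelial markers 2 had peaks (184 and 158 against 160 and 104), also with 0 calls. Neuronal nuclei had a start-site peak at 6 of 6 neuronal markers and Olig2+ nuclei at 7 of 7 markers of their lineage. Whether a shift in cell makeup had a part in the values below was not tested, and more cells with an open site cannot be told apart from a wider opening in each cell.

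In microglia, 4 of the 87 peaks differed between genotypes at an adjusted p under 0.05, and all 4 were higher in SgshKO: 1 upstream of Ccl2 and 3 at Ccl3. That is 4.60% of the members, against 7.37% of all microglia peaks called in either direction, 5.05% called higher and 2.33% called lower. The members were thus called no more often than peaks at large. Limma called 0 of them lower, with 14 at an unadjusted p under 0.05 in either direction. DESeq2 on recovered reads called 3, all higher, at Ccl2 (1) and Ccl3 (2), where it called 5.28% of all microglia peaks. By edgeR 9 were called, where it called 15.5% of all microglia peaks. These were the 4 called by limma and 5 more: 2 of Ccl12 and 1 of Ccl9, lower, and 1 each of Cxcl16 and Il1b, higher. At Ccl4, Ccl6 and Tnf 0 peaks were called by limma, edgeR or DESeq2, and 0 had an unadjusted p under 0.05 by limma. The direction of calls depended on the scaling, with 4 higher and 7 lower when libraries were scaled to the tags in peaks, 6 and 2 after median-of-ratios scaling, 4 and 2 after quantile normalization and 4 and 1 after cyclic loess. Of all microglia peaks 15.8%, 13%, 11.4% and 10.3% were called under these scalings, in the same order. Left without WT replicate 1, limma called 0 (6 at an unadjusted p under 0.05), and without WT replicate 2 only 1, where it called 1.26% and 0.607% of all microglia peaks. Without SgshKO replicate 1 it called 14 (5 higher, 9 lower) and without SgshKO replicate 2 it called 10 (8 higher, 2 lower), where it called 20.5% and 18.0% of all peaks.

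The median log2 change of the 87 peaks was 0.00, against -0.08 for all microglia peaks. Scaling to the tags in peaks moved the median of all peaks to -0.28 and that of the members to -0.19. The WT and SgshKO libraries did not overlap at 51 member peaks (58.6%, against 51.1% of all peaks), and overlapped at 36. Both SgshKO libraries lay above both WT libraries at 27 member peaks and below them at 24, against 21082 and 25813 of the 91770 peaks. Counts of this kind for single genes below are to be read against these. By position, 55 of the 87 peaks were intergenic, 14 intronic and 11 annotated as promoters. Within 1000 bp of a start site there were 15 member peaks, of which Ccl3's was the only one called, where 9.80% of all microglia peaks at that distance were called.

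**Figure D1:**
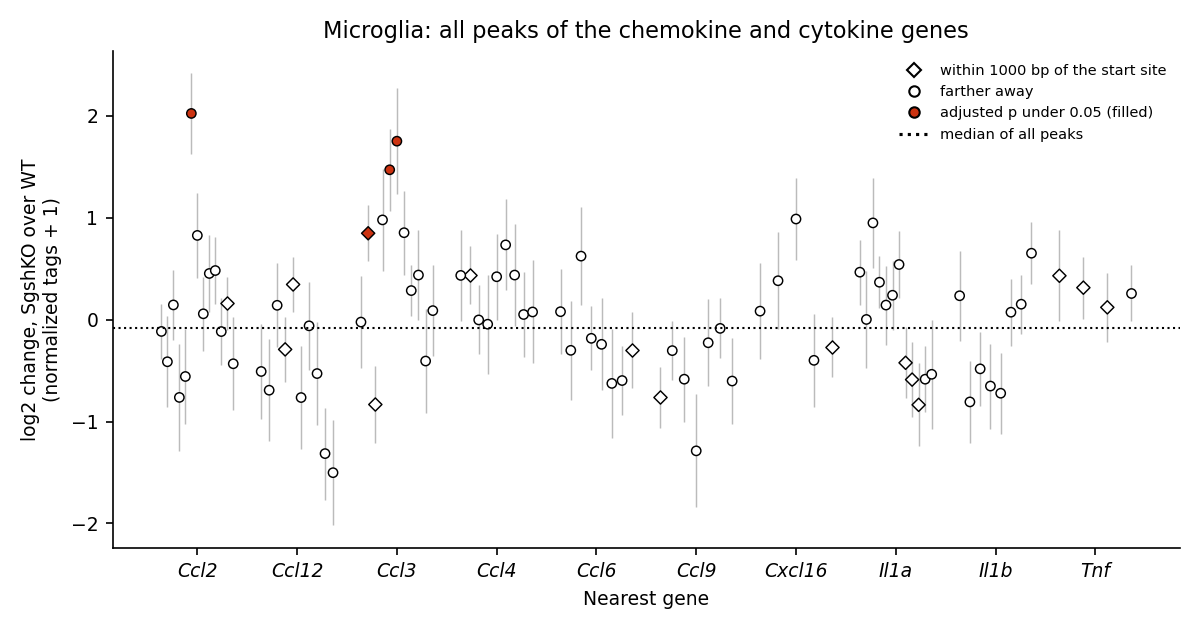
Log2 change (SgshKO over WT, normalized tags + 1) of each of the 87 microglia peaks, by nearest gene and, within a gene, from the most upstream to the most downstream peak; bars are standard errors. Filled points are the 4 called peaks, all above 0, and the dotted line is the median of all microglia peaks, -0.08.

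The largest change was at a distal peak of Ccl2, the chief monocyte chemoattractant. This intergenic peak (chr11:82015228-82015465, at -20231 bp) had 14.7 and 16.9 normalized tags in the WT libraries and 86.6 and 52.0 in the SgshKO libraries, or 15.8 ± 1.59 against 69.3 ± 24.5 (SD, n = 2). Both SgshKO libraries were far above both WT libraries, although they differed from each other by more than the WT libraries did. The log2 change was 2.02 ± 0.39 (SE), 4.38-fold in the means, with an adjusted p of 0.000871. It was called in 14 of 15 alternatives and lost in 1, without WT replicate 1 (log2 change 1.92, adjusted p = 0.0597). Its level ranked at the 61.7th percentile of microglia peaks.

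The start site of Ccl2 did not follow that peak. The peak over it (chr11:82035472-82035700, at 9 bp) had 324 and 308 normalized tags in WT and 396 and 314 in SgshKO, with overlapping groups and a log2 change of 0.16 ± 0.26 (adjusted p = 0.772). The sign of this change turned to -0.05 with scaling to the tags in peaks, -0.34 after quantile normalization, -0.29 after cyclic loess and -0.01 without SgshKO replicate 1. The next peak to the one that rose, at -18967 bp, had 18.2 and 16.9 in WT and 26.0 and 39.0 in SgshKO (log2 change 0.83, adjusted p = 0.244). The strongest distal peak of Ccl2, at -30632 bp, had 258 and 249 in WT and 272 and 201 in SgshKO, again with overlap. In all, 13 peaks were nearest to Ccl2, and in the whole sum over them the WT libraries had 993 and 893 normalized tags and the SgshKO libraries 1201 and 901.

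Ccl12, which lies in the cluster of Ccl2 and encodes a ligand of the same receptor, had 10 peaks with adjusted p-values from 0.0673 upwards. Its start-site peak (chr11:82101567-82101867, at -128 bp) had 264 and 207 in WT and 329 and 267 in SgshKO, without overlap by a narrow margin. Its log2 change of 0.34 ± 0.27 (adjusted p = 0.479) turned to -0.08 after quantile normalization and -0.04 after cyclic loess. At the 2 peaks farthest downstream the values were lower in SgshKO. The peak at 5819 bp had 24.2 and 28.0 in WT and 9.52 and 10.2 in SgshKO (log2 change -1.31, adjusted p = 0.0675). The peak at 6168 bp (chr11:82107908-82108118) had 14.7 and 11.9 in WT and 3.46 and 4.64 in SgshKO (log2 change -1.50 ± 0.52, adjusted p = 0.0673). Both lay next to the threshold, and the latter passed it in 6 of the 12 alternatives that gave it an adjusted p. Its level was at the 3.6th percentile, so that few reads stood behind it. Of the 10 Ccl12 peaks, 6 had both SgshKO libraries below both WT libraries and 1 had them above, against 25813 and 21082 of all 91770 peaks.

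At Ccl3, whose product attracts macrophages and lymphocytes, 3 of 11 peaks were called, all higher in SgshKO. Both SgshKO libraries were above both WT libraries at 7 and below them at 1, against 21082 and 25813 of all 91770 peaks. The start-site peak (chr11:83649515-83649737, at -248 bp), which also lies in the RefSeq span of Ccl4, had 174 and 140 normalized tags in WT and 300.4 and 263 in SgshKO. The SgshKO libraries were 1.80-fold higher in the means, with a log2 change of 0.85 ± 0.27 and an adjusted p of 0.0490, just inside the threshold. The call was lost with a pseudocount of 0.5 (adjusted p = 0.0534), after quantile normalization (log2 change 0.49, adjusted p = 0.0804) and cyclic loess (0.52, adjusted p = 0.0794), and without WT replicate 1 (log2 change 1.00, adjusted p = 0.402) or 2 (0.69, adjusted p = 0.773). The change remained positive in each of the 15 alternatives.

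Downstream of Ccl3, 2 intergenic peaks were called. The peak at 2562 bp (chr11:83646708-83646924) had 15.6 and 16.1 in WT and 47.6 and 43.6 in SgshKO, a log2 change of 1.47 ± 0.40 (adjusted p = 0.0187). The peak at 3113 bp (chr11:83646163-83646367) had 5.19 and 2.54 in WT and 12.99 and 16.7 in SgshKO, a log2 change of 1.75 ± 0.52 (adjusted p = 0.0316). At both, each SgshKO library was well above each WT library, but the second was a weak peak at the 5.2nd percentile of level. Neither was called without WT replicate 1 (adjusted p = 0.333 and 0.246) or WT replicate 2 (0.444 and 0.742), where few peaks of the whole table were called. The log2 changes there were 1.45 and 1.49 for the first peak and 2.15 and 1.35 for the second. DESeq2 did not call the second (0.182).

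These peaks belong to a run of 6 between 2049 and 9648 bp downstream of the Ccl3 start, and at all 6 both SgshKO libraries were above both WT libraries. Summed over the run, the WT libraries had 369 and 386 normalized tags and the SgshKO libraries 527 and 509.7. Most of the sum came from the peak at 9047 bp, with 304 and 325 in WT and 388 and 379 in SgshKO (log2 change 0.28, adjusted p = 0.551). The peak at 4024 bp (15.6 and 21.2 against 33.8 and 33.4, adjusted p = 0.218) overlaps the pseudogene Rpl9-ps1. Not every Ccl3 peak went the same way: the intronic peak at 921 bp had 51.0 and 44.9 in WT and 24.2 and 28.8 in SgshKO, both lower (log2 change -0.83, adjusted p = 0.183). The run was picked out after its values were seen, and is a description only.

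Ccl4, a close relative of Ccl3 that lies on its far side, had 9 peaks. The start-site peak (chr11:83662274-83662501, at -197 bp) had 135 and 125 in WT and 190.5 and 162 in SgshKO, without overlap. Its log2 change of 0.43 ± 0.28 did not pass the test (adjusted p = 0.388). The smallest p of the gene was that of the peak at 4223 bp (chr11:83666704-83666911), with 15.6 and 11.9 in WT and 20.8 and 26.0 in SgshKO (log2 change 0.73 ± 0.45, adjusted p = 0.345). In the 9 peaks both SgshKO libraries were above both WT libraries at 4 and below them at 0, against 21082 and 25813 of all 91770 peaks.

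The other end of the same cluster, at Ccl6 and Ccl9, had mostly lower values in SgshKO. Ccl9 encodes a ligand of Ccr1, and its start-site peak (chr11:83578467-83578695, at 55 bp) had 145 and 138 normalized tags in WT and 87.4 and 78.9 in SgshKO. The SgshKO values were 0.587 of the WT values in the means, with no overlap and a small spread in each group, and the log2 change was -0.76 ± 0.30 (adjusted p = 0.115). It passed the threshold in 7 of 15 alternatives and was negative in all 15, between -0.97 and -0.69. The remaining 6 Ccl9 peaks had log2 changes between -1.29 and -0.09.

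Ccl6, another ligand of Ccr1, had 8 peaks, all of them within the RefSeq span of the non-coding gene E230016K23Rik. Its start-site peak (chr11:83592947-83593160, at 34 bp) had 46.7 and 48.3 in WT and 51.1 and 28.8 in SgshKO, so that the SgshKO libraries lay on both sides of the WT libraries. That change was -0.30 ± 0.37 on the log2 scale (adjusted p = 0.688), and 0.10 without SgshKO replicate 2. The smallest p of the gene was at -2758 bp (chr11:83595742-83595948), where WT had 72.6 and 67.8 and SgshKO 48.5 and 43.6 (log2 change -0.60 ± 0.34, adjusted p = 0.304). Between the Ccl6 and Ccl9 windows the best local match of promoter sequence was a stretch of 17 aligned bases with 16 identical, and the longest shared run was 13 bases.

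Set side by side, the 20 peaks of Ccl3 and Ccl4 (spanning 39502 bp) had 15 positive and 5 negative log2 changes with a median of 0.43, and both SgshKO libraries were above both WT libraries at 11 and below at 1. The 15 peaks of Ccl6 and Ccl9 (63013 bp) had 2 positive and 13 negative changes with a median of -0.30, and corresponding counts of 0 and 7. Of all 91770 microglia peaks, 21082 had both SgshKO libraries above both WT libraries and 25813 had them below. Under the 4 other scalings the medians were 0.22 to 0.52 for the first pair and -0.50 to -0.25 for the second, so neither sign turned. Without SgshKO replicate 2 the second median was 0.08, while the first stayed between 0.26 and 0.49 whichever library was left out. The pairs were formed by position after the values were known, and the difference between them was not tested.

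**Figure D2:**
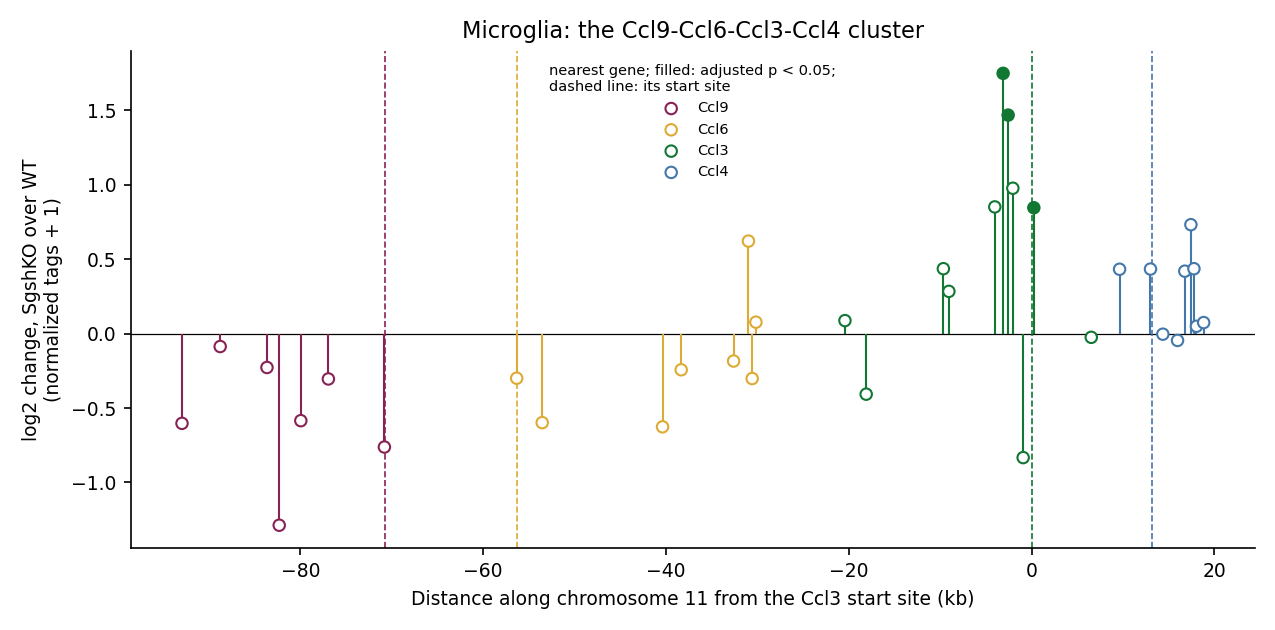
Log2 change (SgshKO over WT, normalized tags + 1) of the 35 microglia peaks nearest to Ccl9, Ccl6, Ccl3 and Ccl4, by distance from the Ccl3 start site in kb along the plus strand; dashed lines are the start sites and filled points the called peaks. The 3 called peaks stand near the Ccl3 start, and 13 of the 15 peaks of Ccl9 and Ccl6 on the left are below 0.

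Cxcl16, a membrane-anchored chemokine that is shed by Adam10, had 5 peaks. The start-site peak (chr11:70459552-70460052, at 182 bp), which overlaps the neighbouring gene Zmynd15, had 140.0 and 117 in WT and 114 and 98.4 in SgshKO (log2 change -0.27 ± 0.30, adjusted p = 0.646). An intergenic peak at -8102 bp (chr11:70467939-70468233) had 28.5 and 16.9 in WT and 56.3 and 35.3 in SgshKO. Both SgshKO libraries were higher, but those of each group differed widely, and the log2 change of 0.99 ± 0.40 had an adjusted p of 0.134. In 6 of 15 alternatives it passed.

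Il1a, which encodes the form of interleukin-1 that is active without cleavage, had 12 peaks, with adjusted p-values from 0.200 upwards. Its start-site peak (chr2:129310122-129310354, at -266 bp) had 62.2 and 50.8 in WT and 47.6 and 28.8 in SgshKO (log2 change -0.59 ± 0.37, adjusted p = 0.356). The 2 other peaks within 1000 bp, at -965 and 818 bp, also had lower means in SgshKO (log2 changes -0.42 and -0.84, adjusted p = 0.509 and 0.221). Farther upstream the values were mostly higher. The strongest Il1a peak, at -10252 bp, had 366 and 294 in WT and 468 and 382 in SgshKO (log2 change 0.37, adjusted p = 0.423). The smallest p was at -18459 bp (chr2:129328315-129328548), with 12.96 and 11.9 in WT and 27.7 and 22.3 in SgshKO, a 2.01-fold difference of means (log2 change 0.95 ± 0.44, adjusted p = 0.200).

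Il1b encodes the form that caspase-1 activates, and no microglia peak lay within 1000 bp of its start. The nearest of its 8 peaks, at -2456 bp (chr2:129373495-129373695), is in an intron of the antisense gene Il1bos. WT had 94.2 and 80.5 there and SgshKO 161 and 117, without overlap (log2 change 0.65 ± 0.30, adjusted p = 0.197), and it was called in 4 of 15 alternatives. Between -37447 and -10180 bp, 4 peaks had both SgshKO libraries below both WT libraries, with log2 changes from -0.81 to -0.48 and no call. Taken as a pair, Il1a and Il1b had 11 positive and 9 negative changes with a median of 0.04, whose sign turned under 3 of the 4 other scalings (-0.16 with scaling to tags in peaks, -0.13 after quantile normalization and -0.06 after cyclic loess).

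Tnf, the founding member of its cytokine family, had 4 peaks on chromosome 17, all with positive log2 changes between 0.12 and 0.43. The peak over the start site (chr17:35201909-35202235, at -65 bp), within 1000 bp of the neighbouring cytokine gene Lta, had 101 and 78.8 in WT and 111 and 111 in SgshKO (log2 change 0.31 ± 0.31, adjusted p = 0.594). The intronic peak at 1373 bp had 163 and 155 in WT and 197 and 186 in SgshKO. In 3 of the 4 peaks both SgshKO libraries were above both WT libraries, yet the smallest adjusted p was 0.594. The same held at 21082 of all 91770 microglia peaks for the position of the libraries.

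Per length of peak, the start sites of the 9 genes with a peak there fell into 3 levels in WT microglia. Ccl2 was highest, with 138.5 normalized tags per 100 bp (135 and 142). Ccl12 (78.4), Ccl3 (70.6), Ccl9 (62.1) and Ccl4 (57.1) followed, and Tnf (27.6), Cxcl16 (25.7), Il1a (24.4) and Ccl6 (22.3) were lowest. In that order the WT libraries of Ccl12 and Ccl3 overlapped, as did those of Ccl3 and Ccl9 and of each neighbouring pair from Tnf to Ccl6, while Ccl2 and Ccl12, Ccl9 and Ccl4, and Ccl4 and Tnf did not overlap. In SgshKO, Ccl3 came second with 127 and Ccl9 had 36.5.

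**Figure D3:**
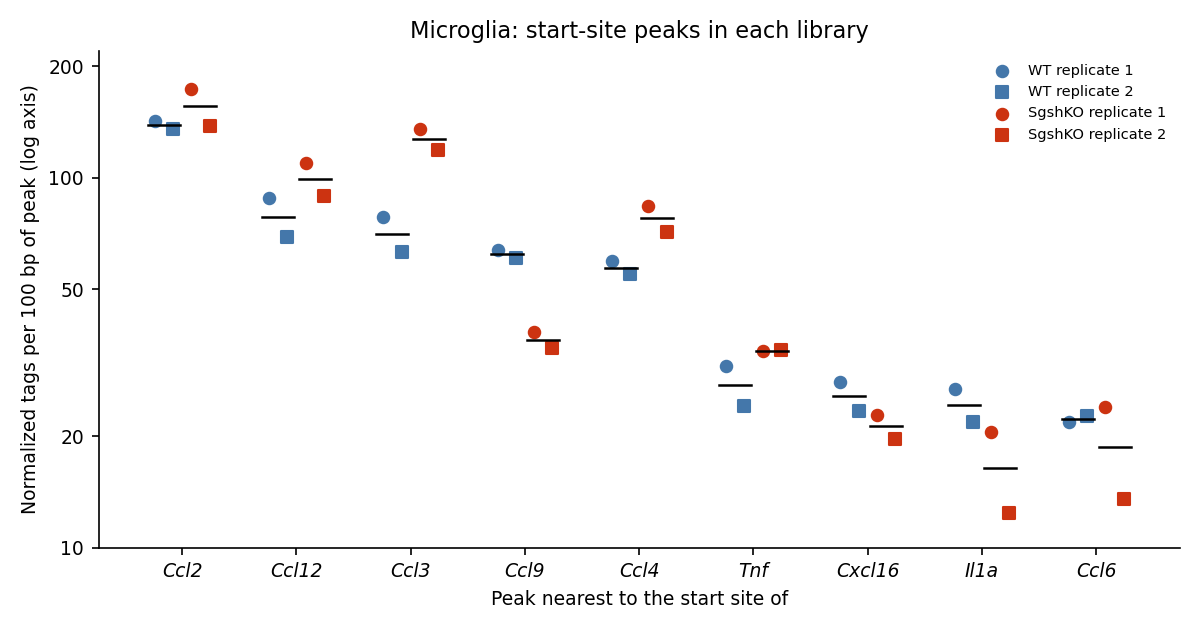
Normalized tags per 100 bp (log axis) in each of the 4 microglia libraries at the peak nearest to the start site of the 9 genes that have one within 1000 bp; horizontal lines are group means. Ccl3 is higher in both SgshKO libraries (118 and 135 against 63.0 and 78.2) and Ccl9 lower (34.6 and 38.4 against 60.6 and 63.7).

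In NeuN+ nuclei the chemokine and cytokine genes had 7 peaks, with levels between percentiles 16.2 and 85.7 of all NeuN+ peaks, and 2 of the 7 were called, both higher in SgshKO. Of all NeuN+ peaks 29.8% were called and 10.2% were called higher, against 28.6% of the members. The median change of all NeuN+ peaks was -0.23 with the deposited scaling and 0.05 when scaled to tags in peaks, and that of the members 0.11 and 0.39. A peak in intron 1 of Ccl2 (chr11:82035941-82036186, at 486 bp) had 3.40 and 7.34 normalized tags in WT and 12.6 and 11.4 in SgshKO. Both SgshKO values were higher, and the log2 change was 1.10 ± 0.36 (adjusted p = 0.0274). The peak over the Ccl2 start (chr11:82035471-82035732, at 24 bp) had 16.4 and 16.9 in WT and 15.4 and 12.7 in SgshKO (log2 change -0.24 ± 0.26, adjusted p = 0.496), and its change was 0.04 with scaling to tags in peaks.

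An intergenic peak at -43667 bp from Il1b (chr2:129414695-129414918) had 5.10 and 4.52 in WT and 9.07 and 11.4 in SgshKO, a log2 change of 0.95 ± 0.34 (adjusted p = 0.0420). The groups did not overlap, but the values correspond to few reads. Neither NeuN+ call held after quantile normalization (adjusted p = 0.0595 for Ccl2 and 0.0522 for Il1b), by DESeq2 (0.272 and 0.336) or without WT replicate 1 (0.258 and 0.123), where the Ccl2 change was 0.64 and the Il1b change 1.02, and 10.5% of all NeuN+ peaks were called. Without WT replicate 2 the Il1b call was lost as well (log2 change 0.88, adjusted p = 0.156; 13.5% of all peaks called). Without either SgshKO library limma called 0 of all 107627 NeuN+ peaks, so the loss of the calls there says nothing about these peaks. Quantile normalization called 15.5% of all NeuN+ peaks and DESeq2 4.55%, against 29.8% as reported, so fewer peaks at large were called there too. Beside Il1b, the peak at -37503 bp had 30.6 and 35.0 in WT and 32.8 and 30.5 in SgshKO, with overlap. The Il1a peaks at -12459 and -10401 bp had adjusted p-values of 0.768 and 0.239, the latter with 6.80 and 6.21 in WT and 10.5 and 8.89 in SgshKO. Of the 14 start-site peaks of neuronal markers 7 were called, all lower, with sums of 600 and 538 against 300.2 and 317 (WT against SgshKO). Start-site peaks of all genes in these nuclei had a median log2 change of -0.53, and 29.8% of all NeuN+ peaks were called. Both SgshKO libraries also had a smaller share of reads in peaks (21.5% and 21.2%, against 26.7% and 25.9% for WT). Whether neuronal markers fell more than start-site peaks at large was not tested, nor was their part in the member values. Among microglia markers, P2ry12, Tmem119, Sall1, Csf1r and Siglech had no start-site peak in NeuN+ nuclei.

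In Olig2+ nuclei 2 of the 3 peaks were called, both lower in SgshKO, where 19.8% of all peaks were called and 11.7% called lower. The peak over the Ccl2 start (chr11:82035459-82035693, at -1 bp) had 103 and 126 in WT and 82.4 and 85.8 in SgshKO. Both SgshKO libraries were below both WT libraries, by a log2 change of -0.43 ± 0.13 (adjusted p = 0.0196). The call was lost without WT replicate 2, which leaves 1 WT library (log2 change -0.29). It was also lost by DESeq2 (adjusted p = 0.248), which called only 4.35% of all Olig2+ peaks. A distal intergenic peak at -16841 bp from Ccl12 (chr11:82084896-82085112) had 17.6 and 13.8 in WT and 7.99 and 4.65 in SgshKO, a log2 change of -1.22 ± 0.33 (adjusted p = 0.00928). With WT replicate 1 left out it did not pass (log2 change -1.055), nor with SgshKO replicate 2 left out (-0.886), each leaving 1 library in a group. DESeq2 gave no adjusted p for it. Without either WT library fewer peaks of the whole table were called as well. The peak at -2498 bp from Ccl2 had 22.3 and 16.4 in WT and 15.4 and 18.6 in SgshKO, with overlap (adjusted p = 0.688). Of the 21 start-site peaks of oligodendrocyte-lineage markers 4 were called, all lower, with sums of 1906 and 1896 in WT and 1663 and 1687 in SgshKO, and their part in the member values was not tested. Of the microglia markers, Sall1 had start-site peaks in Olig2+ nuclei, while P2ry12, Tmem119, Csf1r and Siglech had none. The strongest Sall1 peak had 118 and 118 in WT and 140.2 and 132 in SgshKO (log2 change 0.20, adjusted p = 0.210). Those at -137 and -978 bp had log2 changes of -0.72 and -0.41 (adjusted p = 0.0670 and 0.425). Their part in the Ccl2 values was not tested.

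Ccl2 was the only one of the 10 genes with a start-site peak in every sort. Its WT level was 138.5 normalized tags per 100 bp in microglia, 48.8 in Olig2+ nuclei and 6.39 in NeuN+ nuclei, and the WT libraries of the 3 sorts did not overlap. The tables were normalized separately, each library to its own total, and cells and fixed nuclei were prepared differently, so the order of sorts is a description. In SgshKO the levels were 156, 35.9 and 5.38.

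Whether the genotype change of the Ccl2 start site differed between sorts was tested by an interaction in 1 model of the 12 libraries, over 17040 peaks shared by the 3 tables. The change in Olig2+ nuclei was lower than in microglia by a log2 difference of -0.59 (95% interval -1.11 to -0.07), with an adjusted p of 0.0989, where 21.4% of shared peaks were called. For NeuN+ nuclei the difference was -0.40 (-0.91 to 0.12; adjusted p = 0.217), where 42.1% were called. Neither passed, and a difference was thus not shown. Without SgshKO replicate 2 of microglia the Olig2+ difference was called (-0.76, adjusted p = 0.0308). After quantile normalization both turned positive, 0.08 for Olig2+ (adjusted p = 0.861) and 0.75 for NeuN+ nuclei (adjusted p = 0.0255). In the peaks shared by microglia and NeuN+ nuclei alone (24964, of which 29.3% were called), 1 further member was shared, the Il1b peak at -37447 bp, whose change was higher in NeuN+ nuclei by 0.76 (-0.18 to 1.70; adjusted p = 0.229).

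**Figure D4:**
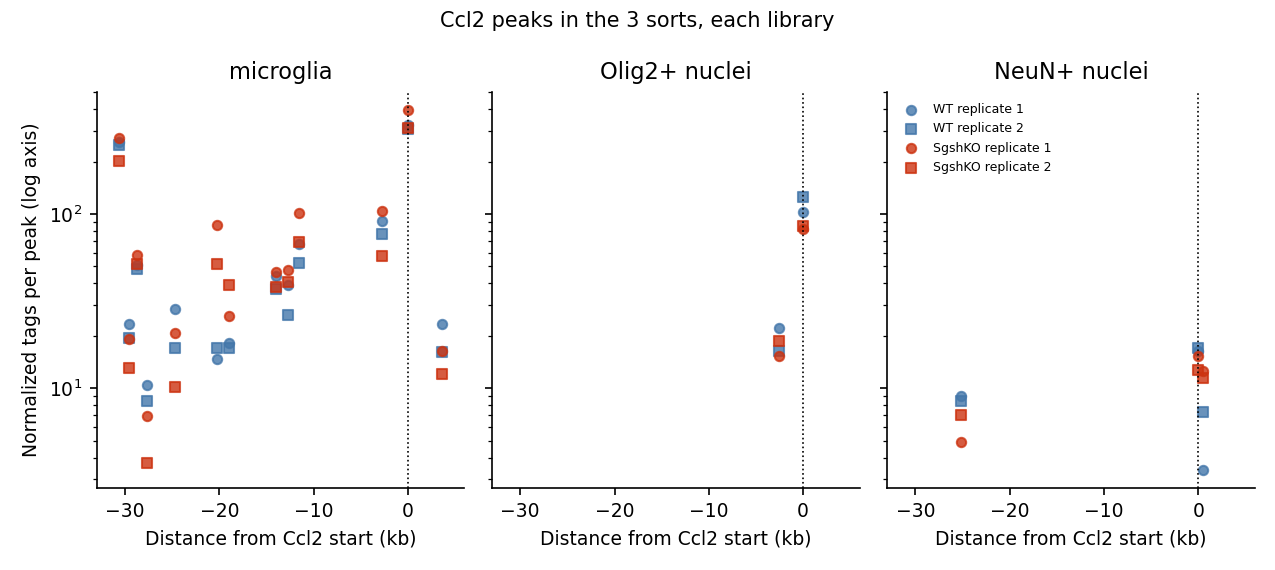
Normalized tags per peak (log axis) of every Ccl2 peak in each library of the 3 sorts, by distance from the Ccl2 start in kb. Microglia have 13 peaks, Olig2+ nuclei 2 and NeuN+ nuclei 3; the peak at -20231 bp, where SgshKO libraries reach 52.0 and 86.6 against 14.7 and 16.9 in WT, is in the microglia panel. Values over the start are 308 to 396 in microglia, 82.4 to 126 in Olig2+ nuclei and 12.7 to 16.9 in NeuN+ nuclei.

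The other genes of the same pathways were counted by lists. In microglia the 15 chemokine receptor genes had 139 peaks, of which 16 (11.5%, at 5 genes) were called, 10 higher and 6 lower, against 7.37% of all microglia peaks (5.05% higher, 2.33% lower). The peak with the smallest p was intergenic and nearest to Cxcr4, the receptor of Cxcl12 (chr1:128712874-128713147, at -120711 bp). It had 22.5 and 16.9 normalized tags in WT and 210.4 and 156 in SgshKO, a log2 change of 3.15 ± 0.34 (adjusted p = 8.81e-08). The median change of that list was -0.18, below the -0.08 of all peaks, and both SgshKO libraries were below both WT libraries at 53 of its peaks and above at 27, against 25813 and 21082 of all 91770. DESeq2 called 9 peaks of the list and edgeR 27, where they called 5.28% and 15.5% of all microglia peaks. The number called by limma fell without either WT library and rose without either SgshKO library, as it did for all microglia peaks.

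Ligands other than the members are read against the same 7.37%. The other chemokines (16 of 17 genes had a peak, 66 peaks in all) had 2 calls (3.03%), 1 in each direction. The smaller p was at the start site of Cxcl14 (chr13:56296355-56296570, at 89 bp), with 6.05 and 2.54 in WT and 34.6 and 13 in SgshKO (log2 change 2.16 ± 0.53, adjusted p = 0.00814). Few reads stood behind its WT values, and its SgshKO libraries differed widely. The other cytokines (11 of 12 genes, 76 peaks) had 4 calls (5.26%), all higher, led by an intergenic peak at 12691 bp from Csf2, the gene of a myeloid growth factor. That peak had 19.0 and 22.03 in WT and 87.4 and 48.3 in SgshKO (log2 change 1.62 ± 0.39, adjusted p = 0.00645). Medians of these lists were 0.13 and 0.04.

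Receptors for the cytokines, with the interleukin-1 antagonist, had 131 peaks at 11 genes and 5 calls (3.82%; 3 higher, 2 lower). The leading one was an intergenic peak at -11364 bp from Tnfrsf1b, a receptor of Tnf, with 2.59 and 2.54 in WT and 21.6 and 13 in SgshKO (log2 change 2.32 ± 0.52, adjusted p = 0.00395). Its WT values also correspond to few reads. Of the genes that process these ligands, such as Casp1 and Adam10, 5 of 6 had peaks, 33 in all. Limma and DESeq2 called 0 of them and edgeR 2, with 7 at an unadjusted p under 0.05 by limma. For the other chemokines, other cytokines and cytokine receptors too, calls fell without either WT library and rose without either SgshKO library. Calls among all microglia peaks moved the same way, so that this says little about the lists.

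In NeuN+ nuclei 29.8% of all peaks were called and 10.2% were called higher. There the lists had 9 of 49 peaks called for the other chemokines (7 higher, 2 lower), 7 of 43 for the chemokine receptors (3 higher, 4 lower), 11 of 46 for the other cytokines (9 higher, 2 lower), 10 of 34 for the cytokine receptors (4 higher, 6 lower) and 1 of 10, lower, for processing. Without WT replicate 1 these counts were 3, 1, 2, 4 and 1, and without WT replicate 2 they were 4, 4, 5, 5 and 1. The smallest p among them was that of the Adam10 start site, with 327 and 303 in WT and 169 and 179.7 in SgshKO (log2 change -0.85 ± 0.08, adjusted p = 2.73e-06). In Olig2+ nuclei 19.8% of all peaks were called and 11.7% were called lower. The corresponding counts there were 5 of 19 (1 higher, 4 lower), 6 of 29 (4 higher, 2 lower), 16 of 67 (2 higher, 14 lower), 3 of 20 (2 higher, 1 lower) and 4 of 8 (3 higher, 1 lower). With WT replicate 1 or 2 left out, which leaves 1 WT library, no list had more calls than this. Fewer peaks of the whole Olig2+ table were called there too, so that this says little about the lists. The smallest p in Olig2+ nuclei was at a distal peak of Cxcl12, the ligand of Cxcr4, with 247 and 221 in WT and 109 and 106 in SgshKO (log2 change -1.12 ± 0.10, adjusted p = 4.29e-09).

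**Figure D5:**
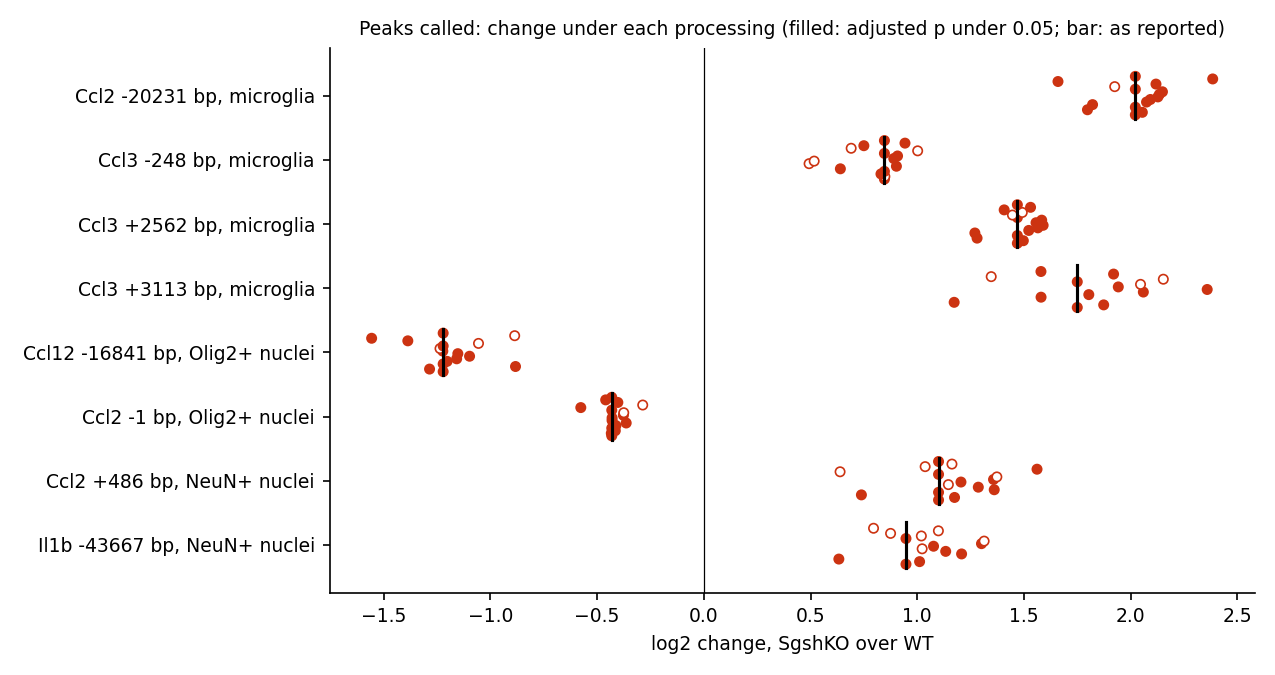
Log2 change (SgshKO over WT) of the 8 called peaks of chemokine and cytokine genes as reported (bar) and under each alternative processing (points; filled where the adjusted p is under 0.05, open where it is not or where none was given). No point crosses 0, and the Ccl2 peak at -20231 bp in microglia has 1 open point.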

How the data were processed

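ATAC-seq libraries of 3 sorts (microglia, NeuN+ nuclei and Olig2+ nuclei), 4 per sort, were compared between WT and SgshKO. The submitters' processing notes name Bowtie2, HOMER and build mm10 without versions, and how duplicates were handled is not given in the sources used here. For each sort the authors deposited 1 annotated peak table, whose signal is tags per peak, scaled per the file headers to a library total of 10000000. A Peak Score, also deposited, served only as a filter in an alternative. Undoing the scaling with the header totals gave whole reads for 100% of values (tolerance 0.01). Each of the 12 tag columns carries the title of its sample, and 0 columns were left over.

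SgshKO was compared with WT in each table by limma 3.58.1 in R 4.3.3 on log2(normalized tags + 1), a scale that understates changes of low peaks, with lmFit and trended eBayes, two-sided and without covariates. Calls required a p below 0.05 after Benjamini-Hochberg adjustment over the whole table, and no peak was filtered out. Each ± is an SD over 2 libraries, or a standard error after a log2 change. Differences between sorts were tested as an interaction over peaks that overlap one-to-one by 50% reciprocally. Depth sets counting error only, since reads carry no molecular identifier.

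Members were all peaks whose nearest gene is 1 of the 10 genes. Described in full were, for each gene and table, the peak nearest to the start site, every called peak and, where none was called, the peak with the smallest p; other peaks named by value were chosen after their values were seen. The members and lists were chosen with earlier results of these data known. Settings tried instead were pseudocounts of 0.5 or 5, omission of the lowest 25% of peaks, 4 other scalings, edgeR 4.0.16 or DESeq2 1.42.0 run on recovered reads, a replicate block, thresholds of 0.1 or 0.01, and omission of each library. A filter on a Peak Score of 1000 and a model of 1 pair of tables were added after seeing the data. In simulated data 200 changed peaks were drawn from the peaks above the median level of a table, so recovery at weaker peaks was not measured. Limma recovered, for microglia (91770 peaks), 93% of 4-fold and 41% of 2-fold changes. For NeuN+ nuclei (107627 peaks) the shares were 88% and 37%, and for Olig2+ nuclei (82577 peaks) 96% and 73%. Of the calls in the simulated data 6.94% were false for microglia, 0.79% for NeuN+ and 2.87% for Olig2+ nuclei. The simulation gave all libraries of a sort the same mean at unchanged peaks. The uneven shares of reads in peaks of the real libraries were not simulated, so false calls from them were not measured. A further microglia marker is not reported here.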

Additional observations from a re-analysis of the deposited data

How the results depend on the processing

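Member calls are given for the alternatives that moved their number by more than 1.5 times. In microglia the 4 calls became 11 with scaling to the tags in peaks, 8 with median-of-ratios scaling, 9 by edgeR and 1 at an adjusted p under 0.01, and 0 to 14 when 1 library was left out, where 0.607% to 20.5% of all microglia peaks were called. Among all microglia peaks edgeR called 14202 (15.5%), DESeq2 4843 and limma 6765. Scaling to the tags in peaks called 15.8% of all microglia peaks, median-of-ratios scaling 13% and the threshold of 0.01 2.97%. Of all NeuN+ peaks 15.5% were called after quantile normalization, 4.55% by DESeq2 and 14.6% at an adjusted p under 0.01. In NeuN+ nuclei the 2 member calls became 1 without the lowest 25% of peaks and 1 with a Peak Score of 1000, both of which drop the Il1b peak. They became 0 after quantile normalization (2 at an unadjusted p under 0.05), by DESeq2 (1) and at an adjusted p under 0.01. With 1 NeuN+ library left out there were 0 to 1. In Olig2+ nuclei the 2 calls became 0 by DESeq2 (1 at an unadjusted p under 0.05, and the Ccl12 peak had no adjusted p) and 1 at an adjusted p under 0.01, and 1 to 2 when a library was left out. Where 1 library remained in a group, it was assumed to vary like the other group.

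The replicate number as a block gave 9 calls in microglia (6 higher, 3 lower), 2 in NeuN+ and 2 in Olig2+ nuclei. With it 15.8%, 33.2% and 21.4% of all peaks were called, against 7.37%, 29.8% and 19.8% without it. Deviations of libraries with the same number correlated at 0.042, 0.0036 and 0.00069 across peaks. Over many peaks with few reads, such a correlation cannot show whether libraries of the same number shared a preparation. In microglia replicate 1 had the larger share of reads in peaks in both genotypes.

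Of 364 values of the 25 peaks described in full, 297 kept direction and side of the threshold, 26 lost a call, 25 gained one and 16 changed sign, in 5 peaks that were uncalled throughout. The NeuN+ Ccl2 peak at 24 bp went to 0.041 with scaling to tags in peaks. The NeuN+ Il1b peak at -37503 bp (-0.05) went to 0.242 there, 0.162 with median-of-ratios scaling, 0.18 after quantile normalization, 0.234 after cyclic loess, 0.16 by edgeR, 0.164 by DESeq2, 0.046 without WT replicate 2 and 0.004 without SgshKO replicate 2 (-0.142 to 0.046 with 1 library left out). In microglia the Ccl12 peak at -128 bp went to -0.078 after quantile normalization and -0.045 after cyclic loess, and the Ccl2 peak at 9 bp to -0.049 with scaling to tags in peaks, -0.338 after quantile normalization, -0.294 after cyclic loess and -0.009 without SgshKO replicate 1 (up to 0.325 with 1 library left out). The Ccl6 peak at 34 bp went to 0.104 without SgshKO replicate 2 (down to -0.703 with 1 library left out). The difference between sorts at the Ccl2 start became 0.746 (NeuN+) and 0.077 (Olig2+) after quantile normalization, and for Olig2+ nuclei -0.756, past the threshold, without microglia SgshKO replicate 2 (-0.756 to -0.422 with 1 library left out). The cause of these changes was not tested.

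With 2 libraries a group and a median of 17 to 39 reads per peak, 2-fold changes were recovered from simulated microglia data in 41% of cases. A member without a call is thus not shown to be unchanged. That share is for peaks above the median level, and member peaks below it were not covered. It is also for libraries without uneven shares of reads in peaks. No sequence of a distal peak was read.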
